A study of Gallus gallus with 12 samples.

Results

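Genes of the mitochondrial respiratory chain and ATP synthase were followed in the maxillary prominence of the chicken embryo, the facial bud that builds the side of the upper beak. They were taken by symbol (NDUF, SDHA to SDHD, UQCR, COX4 to COX8 and ATP5) from the chicken probe sets that carry exactly 1 gene symbol, and each gene was read from its brightest probe set over the 12 arrays. The symbols found 74 genes with 133 probe sets, out of 13008 genes on the array, and 72 of them were bright enough to be tested among 10153 tested genes. These 72 were 34 subunits and 8 assembly factors of complex I, 2 genes of complex II, 8 of complex III, 7 of complex IV and 13 of ATP synthase.

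The respiratory chain sits in the inner mitochondrial membrane. Complexes I and II take electrons from NADH and succinate, complex III passes them to cytochrome c, and complex IV hands them to oxygen, while complexes I, III and IV pump protons that drive ATP synthase. All of the genes followed here are nuclear: their proteins are made in the cytoplasm, imported, and joined with the subunits that mitochondrial DNA encodes.

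At Hamburger-Hamilton stage 15, with 25 somites, every embryo received a 200 µm bead and a 100 µm bead in the side of the head. In the Noggin+RA group the larger bead held Noggin, a secreted antagonist of BMP ligands, and the smaller one retinoic acid (RA), the ligand of nuclear RA receptors, each at 1 mg/ml. The Noggin+DMSO group had Noggin with the RA solvent DMSO, the Tris+RA group had RA with the Noggin buffer Tris, and the Tris+DMSO control had Tris and DMSO. The tissue, mesenchyme with its epithelium, was taken 16 h later at stage 18, and each group had 3 pools of 12 to 15 prominences with 1 Affymetrix array per pool. A bead gives a local, graded exposure that the pool averages, so the arrays say nothing of which cells of the prominence responded.

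Values are the deposited linear intensities, tests used limma on log2(value + 16) over all 21354 bright chicken probe sets, and "called" means a Benjamini-Hochberg adjusted p below 0.05. Fold changes are therefore of value + 16, and log2 differences of low genes are understated. The highest intensity of an array was 6300.0 to 8307, and background was set on each array at the 95th percentile of 689 virus probe sets, 31.08 to 48.97 over the arrays. Of 14 maxillary mesenchyme markers 12 stood above background on every array. Fewer cells of a type and less RNA per cell cannot be told apart in pooled tissue.

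Most respiratory chain genes were detected by the brightest probe set, the one chosen for each gene. Of the 74 genes, 71 were above background on all 12 arrays. ATP5E, the epsilon subunit of ATP synthase, was above it on 10. ATP5G2, a gene of the membrane ring of ATP synthase, and COX7B, a small subunit of complex IV, were above it on 0 arrays and were not tested. ATP5G2 averaged 8.86, 11.2, 11.4 and 7.92 in Noggin+RA, Noggin+DMSO, Tris+RA and Tris+DMSO, and COX7B averaged 7.59, 7.37, 11.0 and 10.2. The other genes of the ATP synthase ring, ATP5G1 and ATP5G3, were above background on all arrays.

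No fitted change of the 72 genes, each read from its brightest probe set, reached 1.5-fold in any of the 6 comparisons. With both factors, Noggin+RA against Tris+DMSO, 0 of 72 were called, against 0.975% of all 10153 genes, and 5 of 72 had an unadjusted p below 0.05 (6.94%, all genes 15.7%). The log2 fold changes lay between -0.42 for the assembly factor NDUFAF2 and 0.37 for the assembly factor NDUFAF3, with a median of 0.04 beside 0.03 over all genes. Noggin alone, Noggin+DMSO against Tris+DMSO, called 0 of 72, where 5.69% of all genes were called, and 6 of 72 had an unadjusted p below 0.05 (8.33%, all genes 26.4%). Its range was -0.37 (NDUFAF2) to 0.39 (NDUFB2, an accessory subunit of complex I), with a median of 0.01 beside 0.04. RA alone, Tris+RA against Tris+DMSO, called 0 of 72, and 0.0% of all genes. Only NDUFAF8, at -0.31, had an unadjusted p below 0.05 there (1.39%, all genes 6.64%), and the highest value was 0.29 for ATP5I, a small subunit of the ATP synthase membrane part. These 3 comparisons share their control arrays.

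**Figure D1:**
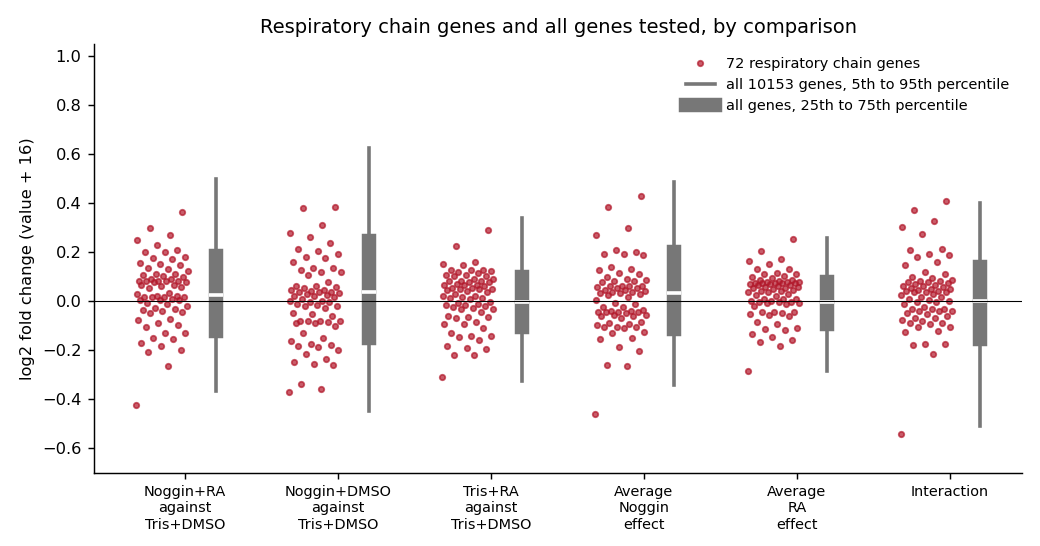
Log2 fold changes of the 72 respiratory chain genes (points) in the 6 comparisons, on the log2(value + 16) scale, beside the range of all 10153 genes tested (grey box from the 25th to the 75th percentile, whisker from the 5th to the 95th, white line at the median). The points stay between -0.54 and 0.43 in every comparison.

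Under the deposited scaling, most of these genes had intervals narrow enough to bound the change. The intervals leave out the choice of scaling. With arrays centred on their medians, the median of the 72 genes with Noggin alone was -0.165, in place of 0.01. The 95% confidence interval lay wholly inside 1.5-fold up or down for 65 of 72 genes (90.3%) with both factors, for 62 (86.1%) with Noggin alone and for 67 (93.1%) with RA alone. Over all genes tested the shares were 65.6%, 57.7% and 74.0%. The median standard error was 0.12 on the log2 scale for the 72 genes and 0.15 for all genes. The fitted change itself was beyond 1.5-fold for 4.68%, 8.22% and 2.38% of all genes in the same comparisons.

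The levels also varied little between pools. Within groups the median SD of log2 values was 0.13, beside 0.18 over all genes, and from the lowest to the highest of the 12 arrays the median gene spanned 1.37-fold, beside 1.61-fold. For 70 of 72 genes (97.2%) the span was below 2-fold, which held for 77.0% of all genes. NDUFAF7, a methyltransferase that modifies a complex I subunit during assembly, had the narrowest span, 1.15-fold. Their median intensity was 1537, beside 205.4 over all genes, and the part of brightness in the narrow spread was not tested.

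NDUFS1, the largest subunit of complex I, had the widest span, 2.50-fold. Its intensity was 1887, 1742 and 1568 in Noggin+RA, 1550, 1911 and 1812 in Noggin+DMSO, 1676, 1418 and 1877 in Tris+RA, and 2300, 1702 and 910.4 in Tris+DMSO. The control arrays alone held both the highest and the lowest value. A second probe set of NDUFS1 read 1176, 1081 and 1039 on those control arrays and spanned 1.21-fold over the 12. The other exception to the 2-fold span was ATP5E at 2.12-fold, a gene close to background.

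For the median of the 72 genes the control group was the least even of the 4. As log2 deviations from the mean of the control arrays, the median of the 72 genes was 0.01, 0.11 and 0.00 in Noggin+RA, -0.05, 0.02 and 0.04 in Noggin+DMSO, 0.03, 0.00 and 0.04 in Tris+RA, and 0.11, -0.02 and -0.11 in Tris+DMSO. Control arrays 1 and 3 were the highest and the lowest of the 12. The ATP synthase genes followed the same course, with medians of 0.15, -0.03 and -0.14 on the control arrays, and -0.07 to 0.05 on the 6 Noggin arrays. The complex I assembly factors did not, with medians of 0.01, -0.02 and 0.01 on the control arrays, and -0.12 to 0.12 on the 6 Noggin arrays. Over all 10153 genes the medians of the 12 arrays lay between -0.01 and 0.05.

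**Figure D2:**
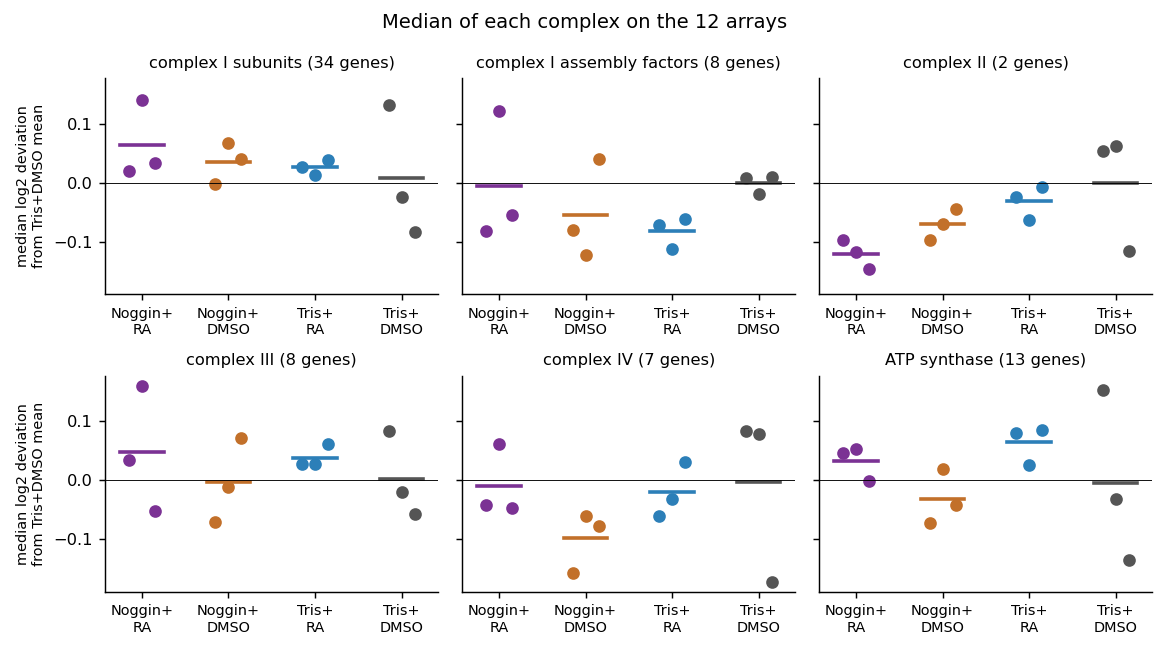
Median log2 deviation of each complex's genes from the Tris+DMSO mean on each of the 12 arrays, by group, with Noggin+RA at the left and Tris+DMSO at the right; points are arrays and lines are group means. The control arrays hold both ends for the ATP synthase genes, 0.15 and -0.14, and complex II is lower on the 3 Noggin+RA arrays (-0.15 to -0.10) than on control arrays 1 and 2 (0.05 and 0.06), while control array 3 (-0.12) lies within their range.

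The 6 Noggin arrays against the 6 Tris arrays gave the average effect of Noggin over both states of RA. Of 72 genes 3 rose and 1 fell, 5.56%, against 12.3% of all genes, of which 6.96% rose and 5.33% fell. The median was 0.02, beside 0.03 over all genes, 38 of 72 values were positive (52.8%, all genes 55.9%), and 12 of 72 had an unadjusted p below 0.05 (16.7%, all genes 31.7%). For 69 of 72 genes (95.8%) the 95% interval lay inside 1.5-fold, beside 78.5% of all genes. The 4 called genes were NDUFAF3, COX8A, NDUFB2 and NDUFAF2, and they belong to complex I, its assembly and complex IV.

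NDUFAF3 is an early assembly factor of the complex I arm that reaches into the matrix. It measured 393.2, 559.4 and 544.1 in Noggin+RA, 434, 561.9 and 506.7 in Noggin+DMSO, 345.5, 327.7 and 378.7 in Tris+RA, and 360.8, 404.3 and 373.2 in Tris+DMSO. Noggin+RA replicate 1 lay inside the Tris range, and the other Noggin arrays were above every Tris array. The average Noggin effect was a log2 rise of 0.43 (SE 0.10, 95% interval 0.20 to 0.65, 1.35-fold, limma adjusted p = 0.0257).

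COX8A encodes the broadly expressed form of the smallest complex IV subunit. Noggin+RA pools had 1168, 1431 and 1471, Noggin+DMSO pools 1188, 1567 and 1267, Tris+RA pools 870.5, 996.8 and 1006, and Tris+DMSO pools 1054, 1242 and 1003. Control replicate 2, at 1242, overlapped the lower Noggin values, and the Tris+RA pools were all below every Noggin pool. The log2 rise was 0.38 (SE 0.10, interval 0.17 to 0.60, 1.31-fold, limma adjusted p = 0.0323).

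NDUFB2 was the one respiratory chain gene higher on all 6 Noggin arrays than on all 6 Tris arrays. It read 1228, 1289 and 1297 in Noggin+RA and 1307, 1306 and 1752 in Noggin+DMSO, against 1080, 1084 and 1120 in Tris+RA and 1169, 1058 and 1072 in Tris+DMSO. One pool, Noggin+DMSO replicate 3, stood above the rest. The log2 rise was 0.30 (SE 0.09, interval 0.11 to 0.49, 1.23-fold, limma adjusted p = 0.0451).

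NDUFAF2, a late assembly factor of complex I related to the subunit NDUFA12, fell. Its values were 319.4, 224.2 and 198.9 in Noggin+RA, 250.7, 280.9 and 228.3 in Noggin+DMSO, 370, 354.3 and 364 in Tris+RA, and 412.1, 337.9 and 259 in Tris+DMSO. The Tris+RA pools were above every Noggin pool, while control replicate 3 lay among the Noggin pools. The log2 change was -0.46 (SE 0.13, interval -0.74 to -0.18, limma adjusted p = 0.0441).

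These 4 calls depended on single arrays. The count of 4 was 3 without Noggin+RA replicate 1, 2 without Noggin+DMSO replicate 1 or Tris+DMSO replicate 2 or 3, and 1 without Noggin+DMSO replicate 2 or Tris+RA replicate 1 or 3. Without Tris+DMSO replicate 1 all 4 calls were lost and NDUFS8 was called in their place. The count was 0 without Noggin+RA replicate 2 or 3, Noggin+DMSO replicate 3 or Tris+RA replicate 2. Over all genes the share called also fell, from 12.3% with all arrays to 9.05%, 5.51%, 5.88% and 7.25% in these omissions. Across the 12 omissions of 1 array it was 5.51% to 11.8%. NDUFAF3 kept its call in 6 of the 12 omissions, COX8A in 3, NDUFAF2 in 2 and NDUFB2 in 1, with the sign the same in each, and the highest adjusted p by limma was 0.0993, for NDUFAF2. Centring the arrays on their medians moved the median of all genes to -0.12. The calls were then 0 up and 7 down, NDUFAF2 among them (all genes 19.5%), while quantile normalization gave 6 up and 1 down (all genes 10.2%).

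**Figure D3:**
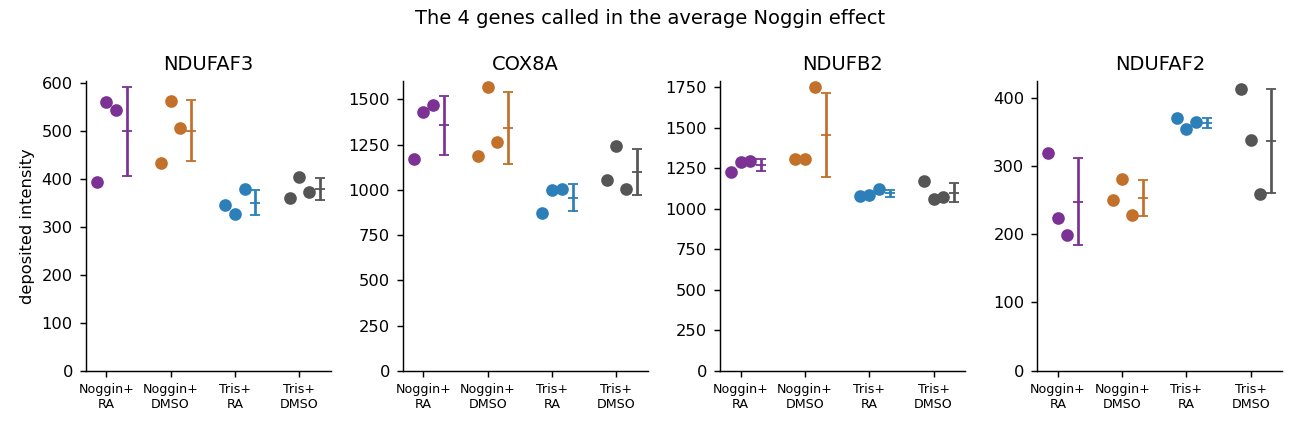
Deposited intensity of NDUFAF3, COX8A, NDUFB2 and NDUFAF2 on each of the 12 arrays, with Noggin+RA at the left and Tris+DMSO at the right; points are pools, and the bar beside them is the group mean with its SD (n = 3). For NDUFB2 the Noggin pools (1228 to 1752) lie above all Tris pools (1058 to 1169), and for the other genes shown at least 1 pool overlaps.

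Other quantities moved with Noggin on the same arrays. The background level was 39.57 to 48.97 on the Noggin arrays and 31.08 to 38.33 on the Tris arrays, and the median intensity of all probe sets was 40.85 to 47.43 on the Noggin arrays and 33.85 to 39.75 on the Tris arrays, both without overlap. The 5' over 3' ratio of the GAPDH control, a measure of RNA and label length, was 0.619 to 0.736 on the Noggin arrays and 0.784 to 0.849 on the Tris arrays, without overlap. With that ratio in the model, 0 of 72 genes and 0 of all 10153 were called in the average Noggin effect, and NDUFB2 changed sign (-0.03). Because the ratio did not overlap between Noggin and Tris arrays, that fit cannot tell the ratio from Noggin, and the lost calls decide nothing. The marker counts that follow are for the average Noggin effect, where 6.96% of all genes rose and 5.33% fell. Of 15 tested red blood cell markers 5 rose with Noggin (SLC4A1, ANK1, TFRC, TAL1 and HEMGN), and the summed intensity of the list was 28250 to 38210 on the Noggin arrays, against 14900 to 32160 on the Tris arrays. Surface epithelium had 3 of 12 markers up, with sums of 8298 to 10140 on Noggin arrays and 6914 to 8871 on Tris arrays. Thrombocytes had 1 of 4 up, with 891 to 1647 on Noggin arrays and 574.5 to 1031 on Tris arrays, and muscle 2 up and 1 down of 12, with 2485 to 3493 on Noggin arrays and 2005 to 3003 on Tris arrays. Endothelium had 1 up of 14, with 2726 to 3193 on Noggin arrays and 2804 to 3154 on Tris arrays, and neurons 0 of 10 called, with 1777 to 5251 on Noggin arrays and 1580 to 5975 on Tris arrays. Maxillary mesenchyme had 1 up and 6 down of 14, with 8206 to 9575 on Noggin arrays and 8235 to 11880 on Tris arrays. RHAG, MYL3, MYH7, MYOD1, MYOG, TNNI2, DES, EMCN, NEUROG1, NEUROD4 and SYT1 were above background on 0 arrays. The part of these quantities in the respiratory chain values was not tested.

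**Figure D4:**
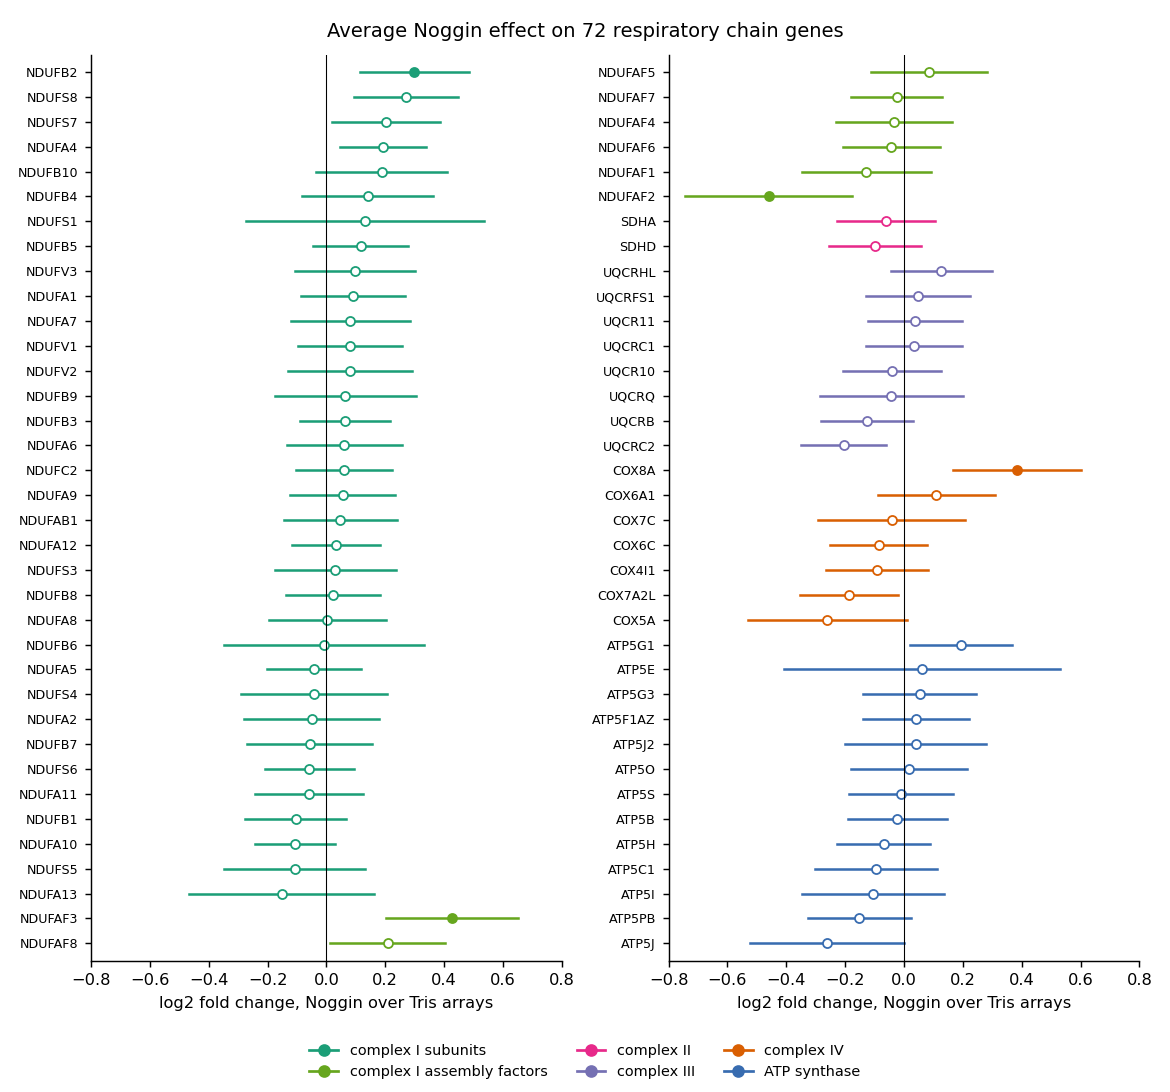
Average Noggin effect, 6 Noggin against 6 Tris arrays, for all 72 respiratory chain genes by complex, as log2 fold change of value + 16 with its 95% confidence interval; colours mark the complex and filled points the called genes. The 4 called genes are the rises of NDUFAF3, COX8A and NDUFB2 and the fall of NDUFAF2, and 69 of the 72 intervals lie inside 1.5-fold.

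Complex I subunits, with 34 genes, had 1 call in the average Noggin effect, NDUFB2 (2.94%, all genes 12.3%), and a median of 0.06. The core subunits that carry flavin or iron-sulphur clusters, NDUFV1, NDUFV2, NDUFS1, NDUFS7 and NDUFS8, had log2 values of 0.08, 0.08, 0.13, 0.20 and 0.27. The NDUFS1 value is from the probe set with the widest span, and its other tested probe sets had 0.03 and -0.09. NDUFS8, which carries a pair of iron-sulphur clusters close to the quinone site, missed the threshold (limma adjusted p = 0.0515). It measured 584.8, 652.7 and 685.8 in Noggin+RA, 620.6, 652.2 and 663.8 in Noggin+DMSO, 517.1, 548.1 and 509.3 in Tris+RA, and 607.8, 464.4 and 542.3 in Tris+DMSO. Control replicate 1 was the single Tris array that reached the Noggin range. In Noggin+RA against Tris+DMSO, 28 of 34 subunits had positive values (82.4%, all genes 54.9%) with a median of 0.08, and 0 were called (all genes 0.975%). The complex I medians were 0.02, 0.14 and 0.03 on the Noggin+RA arrays and 0.13, -0.02 and -0.08 on the control arrays, so the groups overlapped.

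Among the 8 assembly factors of complex I, NDUFAF3 and NDUFAF2 moved in opposite directions with Noggin, and the other 6 were not called, with values of -0.13 (NDUFAF1) to 0.21 (NDUFAF8). NDUFA4 was counted by its symbol among the 34 complex I subunits and not among the 7 genes of complex IV, with which it is now placed. It measured 2739, 3140 and 2898 in Noggin+RA, 2810, 2984 and 3023 in Noggin+DMSO, 2759, 2574 and 2570 in Tris+RA, and 2541, 2555 and 2383 in Tris+DMSO. All 3 treated groups lay above the control. The average Noggin effect was 0.19 (limma adjusted p = 0.0826).

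Complex II was represented by SDHA, its flavoprotein, and SDHD, one of its membrane anchors. Their average Noggin effects were -0.06 and -0.10, and neither was called. SDHD read 1254, 1284 and 1267 in Noggin+RA, against 1430, 1628 and 1354 in Tris+DMSO, without overlap, with a log2 difference of -0.21 (limma adjusted p = 0.373). A second SDHD probe set, with a mean of 35.85 and above background on 3 of 12 arrays, did not pass the brightness rule and was not tested. With that probe set averaged in, the SDHD value was 0.07.

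Complex III had 0 of 8 genes called in every comparison, where 0.0% to 12.3% of all genes were called, and was not tested as a set. UQCRC2, a core protein of the complex, was the one gene lower on all 6 Noggin than on all 6 Tris arrays: 1980, 2042 and 1975 in Noggin+RA and 1782, 1865 and 1959 in Noggin+DMSO, against 2290, 2264 and 2163 in Tris+RA and 2383, 2123 and 2164 in Tris+DMSO. The change was small, -0.21 on the log2 scale (interval -0.35 to -0.06, limma adjusted p = 0.0638), and the Noggin+DMSO pools were all below the Noggin+RA pools. A second UQCRC2 probe set, dimmer but above background on all 12 arrays, had -0.10 for the same effect (limma adjusted p = 0.685). UQCRFS1, the Rieske iron-sulphur protein, had 0.05.

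In complex IV, COX8A rose and 5 of the 7 genes had negative values. COX7A2L, which helps join complexes III and IV, had -0.19, and COX5A, a subunit on the matrix side, had -0.26 (limma adjusted p = 0.176) with intensities of 86.85 to 120.4 on the Noggin arrays and 101.9 to 163.8 on the Tris arrays. A second COX5A probe set, above background on all 12 arrays, had 0.02 for the same effect, and the mean over both gave -0.12. COX4I1, the common form of the regulatory subunit IV, had 3077, 3595 and 3238 in Noggin+RA, 2865, 2803 and 2716 in Noggin+DMSO, 3203, 3272 and 2931 in Tris+RA, and 3566, 3584 and 2910 in Tris+DMSO. The Noggin+DMSO pools were the lowest group, below every control pool, with a log2 difference of -0.26 (limma adjusted p = 0.188).

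ATP synthase had 0 of 13 genes called in any comparison, where 0.0% to 12.3% of all genes were called. So small a set was not tested as a set. Its average Noggin values ran from -0.26 for ATP5J, coupling factor 6 of the stalk, to 0.19 for ATP5G1. ATP5J was dim, with a mean of 65.41 over the 12 arrays. Another tested ATP5J probe set, above background on only 3 arrays, had -0.41 (limma adjusted p = 0.0577). ATP5B, the catalytic beta subunit, read 3467, 3354 and 3250 in Noggin+RA, 2960, 3275 and 3118 in Noggin+DMSO, 3467, 3212 and 3339 in Tris+RA, and 3731, 2920 and 3101 in Tris+DMSO. The groups overlapped throughout, and its average Noggin effect was -0.02 (interval -0.19 to 0.15).

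Counting genes whose pools did not overlap needs no model. Noggin+DMSO and Tris+DMSO did not overlap for 11 of 72 genes (15.3%), 5 higher and 6 lower, against 32.6% of all genes (17.8% higher and 14.8% lower). The higher ones were ATP5G1, NDUFAF3, NDUFB2, NDUFA4 and NDUFS8, and the lower ones UQCRC2, NDUFB7, UQCRB, NDUFA10, COX4I1 and NDUFA13. Noggin+RA and Tris+DMSO were apart for 8 (11.1%, all genes 20.8%), and Tris+RA and Tris+DMSO for 5 (6.94%, all genes 11.1%). The Noggin and Tris arrays, 6 against 6, were apart for 2 genes (2.78%, all genes 5.84%), NDUFB2 higher (all genes 2.93%) and UQCRC2 lower (all genes 2.92%), and the RA and DMSO arrays for 0 (all genes 0.867%).

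RA moved none of these genes past the threshold. In the average RA effect, 6 RA against 6 DMSO arrays, 0 of 72 were called, against 1.07% of all genes, 2 had an unadjusted p below 0.05 (2.78%, all genes 10.3%), and all 72 intervals (100.0%, beside 88.1% of all genes) lay inside 1.5-fold. The lowest value was -0.28, for NDUFAF8 (limma adjusted p = 0.258), an assembly factor that works with NDUFAF5. It measured 178, 200.9 and 218.5 in Noggin+RA, 247.5, 246 and 227.1 in Noggin+DMSO, 179, 144.8 and 176.9 in Tris+RA, and 245.3, 196.3 and 192.1 in Tris+DMSO. Each RA group was lower than its DMSO partner without overlap, though across Noggin states the ranges met. The highest was 0.26, for NDUFB7, an accessory subunit of complex I (limma adjusted p = 0.388).

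The interaction, which sets the change that RA made beside Noggin against the change it made beside Tris, was called for 0 of 72 genes and for 0.0% of all genes, with 1 of 72 at an unadjusted p below 0.05 (1.39%, all genes 6.05%). Its median standard error was 0.17, so only 54 of 72 intervals (all genes 44.5%) lay inside 1.5-fold. NDUFB7 had the highest value, 0.41, from 479.3, 674.6 and 622.2 in Noggin+RA, 468.8, 440.4 and 362.7 in Noggin+DMSO, 491.9, 552.5 and 539.8 in Tris+RA, and 512.1, 507.4 and 506 in Tris+DMSO. Its Noggin+DMSO pools were the low group. ATP5J2, a membrane subunit of ATP synthase, had the lowest, -0.54 (limma adjusted p = 0.802), with 172.5, 166.9 and 183.8 in Noggin+RA, 231.5, 204 and 285 in Noggin+DMSO, 198, 224.2 and 201 in Tris+RA, and 171.7, 161.9 and 241.3 in Tris+DMSO. The mean over its probe sets gave 0.02.

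Further probe sets of the same genes were read where they were bright enough, 40 of them for 25 genes. The sign of the brightest probe set was shared by 29 of the 40 with both factors, 23 with Noggin alone and 24 with RA alone. It was shared by 25 in the average RA effect and 21 in the interaction. In the average Noggin effect 26 of the 40 had the sign of the brightest probe set. Of these 40, 2 were called in that effect, where 11.2% of all probe sets were: one of NDUFA7 rose by 0.38 (limma adjusted p = 0.0362) while its brightest had 0.08, and one of NDUFS6 rose by 0.74 (limma adjusted p = 0.0297) but was above background on only 2 arrays. With Noggin alone 1 of the 40 was called, the same NDUFS6 probe set, at 1.10 (limma adjusted p = 0.0375), beyond 1.5-fold. That NDUFS6 probe set read 5.256, 19.85 and 25.77 on the control arrays, below the medians of those arrays (33.85, 38.9 and 39.75). It counted as bright only through arrays of the treated groups, so its calls are not independent of that choice and carry no weight. The share of all genes called there, 5.69%, is for the brightest probe set of each gene and not for further ones. An ATP5J2 probe set had -0.63 with RA alone, also beyond 1.5-fold, and was not called (limma adjusted p = 0.844).

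Among other mitochondrial and glycolytic genes, in lists taken from general knowledge, the change of largest size was a rise of VDAC1. All counts here are for the average Noggin effect, where 12.3% of all genes were called, 6.96% up and 5.33% down. In the comparisons of Noggin+RA or Tris+RA with the control, the average RA effect and the interaction 0 genes of these lists were called. The mitochondrial import and membrane list had 1 of 21 up, VDAC1, the pore of the outer membrane that passes ATP and metabolites. VDAC1 read 783, 635.7 and 785.2 in Noggin+RA, 1059, 1124 and 1203 in Noggin+DMSO, 804.9, 574.5 and 540.6 in Tris+RA, and 520.7, 499.4 and 432.8 in Tris+DMSO. Every pool of each treated group was above every control pool, and Noggin+DMSO stood highest. The average Noggin effect was 0.70 (SE 0.11, limma adjusted p = 0.0043), and Noggin alone against control gave 1.20 (limma adjusted p = 0.00277). Both calls held in each of the 12 omissions of 1 array. The Noggin+RA and Tris+RA pools of VDAC1 overlapped, so the average does not describe a clear rise in both states of RA. Its interaction was -0.99 (interval -1.46 to -0.51) and was not called (limma adjusted p = 0.406). In the same list TIMM9, a chaperone of the intermembrane space, fell by 0.45.

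Of 25 further chain and assembly genes 3 fell (12.0%, all genes 5.33%) and 0 rose (all genes 6.96%), with a median of -0.10. These few genes were not tested as a set. The genes that fell were TMEM70 (-0.41) and ATPAF1 (-0.30), which help build ATP synthase, and NUBPL (-0.50), which loads iron-sulphur clusters into complex I. TMEM70 averaged 839 ± 56.5 in Noggin+RA and 756.2 ± 74.5 in Noggin+DMSO, against 1053 ± 7.46 in Tris+RA and 1079 ± 147 in Tris+DMSO (SD, n = 3 each). CYCS, cytochrome c, was not called (-0.05), nor were COX14 (0.43) and BCS1L (0.34), which help build complexes IV and III and had the highest values of the list. Without single arrays ATPAF1 lost its call in 8 of the 12 omissions and NUBPL in 10, with adjusted p values by limma of up to 0.0764 and 0.102, and TMEM70 kept it in all 12.

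Of 12 genes of mitochondrial biogenesis and transcription 3 fell (25.0%, all genes 5.33%) and 0 rose (all genes 6.96%), with a median of -0.03. This short list was not tested as a set. GABPA, the DNA-binding chain of a transcription factor with many respiratory chain targets in mammals, fell by 0.28 (limma adjusted p = 0.0219). It read 1601, 1548 and 1433 in Noggin+RA and 1487, 1466 and 1516 in Noggin+DMSO, against 1915, 1882 and 1821 in Tris+RA and 1771, 1837 and 1756 in Tris+DMSO. The Noggin and Tris arrays did not overlap. TFB2M, which melts promoters for the mitochondrial RNA polymerase, fell by 0.40 with 428.9 to 517.6 on the Noggin arrays and 558.4 to 680.1 on the Tris arrays, and TFB1M, a methyltransferase of mitochondrial ribosomal RNA, fell by 0.24. TFAM, which packs mitochondrial DNA, was not called (-0.07, limma adjusted p = 0.589). PPARGC1A and PPARGC1B, coactivators of mitochondrial genes, had 0.47 and 0.21 and were not called (limma adjusted p = 0.0777 and 0.125), and 6 of the 12 values were positive. TFB2M kept its call in all 12 omissions of 1 array, GABPA lost it without Noggin+RA replicate 3 (limma adjusted p = 0.0548), and TFB1M kept it in 1.

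The mitochondrial ribosome had 1 of 64 genes up (MRPL55, 0.26) and 2 down (MRPS35, -0.61, and MRPS6, -0.57), with a median of -0.02. That is 4.69% called, against 12.3% of all genes. The tricarboxylic acid cycle had 0 of 13 up and 1 down (7.69% called), SUCLA2 (-0.49), a subunit of succinyl-CoA ligase. Glycolysis had 0 of 17 up and 2 down (11.8% called), PFKP (-0.51), a phosphofructokinase, and TPI1 (-0.23), triosephosphate isomerase. MRPL55 and TPI1 each kept their call in 1 of the 12 omissions, with adjusted p values by limma of up to 0.0888 and 0.0976, while MRPS35, MRPS6, SUCLA2 and PFKP kept theirs in all 12. With the mean over all probe sets of a gene, dim ones included, in place of its brightest, 6 of these falls were no longer called, those of ATPAF1 (-0.17), NUBPL (-0.15), GABPA (-0.23), TFB1M (-0.09), MRPS6 (-0.27) and SUCLA2 (-0.13), with limma adjusted p values from 0.0678 for MRPS6 to 0.491 for TFB1M.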

How the data were processed

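RNA of 12 pools, 500 ng each, was labelled in 2 cycles and hybridised to 1-colour Affymetrix arrays, per the labels' protocols. The deposited values are linear intensity per probe set, with a 2% trimmed mean of 150.03 on every array; the summarization software is not given in the sources used here. Chicken probe sets above their array's 50th percentile on at least 3 of 12 arrays were kept (21354). Log2(value + 16) was fitted with limma 3.58.1 (lmFit, eBayes, R 4.3.3), 1 mean per group over 12 arrays, two-sided, with Benjamini-Hochberg adjustment over all kept probe sets. The fit was also run on simulated data with independent noise and known changes in the Noggin+DMSO group. That run checked the working of the fit and is no measure of power or false calls in these arrays. Genes are named by their probe annotation; 73 of 74 had a RefSeq identifier, and 0 symbols differed. Left out was 1 probe set with 2 symbols. Named were called genes, the 4 highest and 4 lowest per comparison, complex I core and assembly genes, isoforms, and genes of the lists. The genes, lists and tests were chosen with earlier results of these data known. The pools are labelled as biological replicates, and their number limits the precision. Promoter motifs were not analysed here.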

Additional observations from a re-analysis of the deposited data

How the results depend on the processing

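With 3 pools per group, small changes near the threshold were the limit. In the average Noggin effect the count of 4 called genes became 7 at an adjusted p below 0.10, 7 with a pseudocount of 64, 7 with quantile normalization and 7 (0 up, 7 down) with median centring. It was 2 with a pseudocount of 1, 2 with the mean of all probe sets, 1 with no filter, 0 with the GAPDH ratio as a covariate, and 0 to 3 with 1 array left out. The GAPDH ratio did not overlap between Noggin and Tris arrays, so fits with it as a covariate cannot separate the ratio from Noggin. With the replicate number as a block the count was 3 (all genes 9.84%). The labels tie pools of 1 number by nothing but that number, and their deviations from group means correlated at -0.098 to 0.069. Noggin alone gave 1 at an adjusted p below 0.10, 1 with quantile normalization (NDUFB2 in both) and 1 with median centring (UQCRC2), and 0 otherwise. Median centring, which moved the median of all genes by more than 0.1, gave medians over the 72 genes of -0.0589 (Noggin+RA), -0.165 (Noggin+DMSO) and -0.127 (average Noggin), and the GAPDH covariate -0.0406, -0.0833 and -0.0624. The interaction median ran from -0.0483 to 0.0861 with 1 array left out. Signs turned with the GAPDH covariate for NDUFB2 in Noggin+DMSO (-0.0319), the average Noggin effect (-0.0262) and the interaction (0.0114) and for NDUFB7 in Noggin+DMSO (0.0335), and with the mean of all probe sets for SDHD in Noggin+RA (0.0736, with a dim second probe set) and, in the interaction, ATP5J2 (0.0245), NDUFAF4 (-0.0101) and NDUFB2 (0.0113). NDUFA2 in Tris+RA ran from -0.00255 to 0.229 with 1 array left out. The cause was not tested. Alternatives for genes of the other mitochondrial lists were added after seeing the data.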
